A study of Danio rerio with 36 samples.

Results

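Larvae kept in 222 mM glucose were compared with larvae kept in 130 mM glucose at 48 h after removal of the caudal fin. The comparison holds 6 of the 36 RNA-seq libraries of the study, 3 at each dose, and they were chosen by their labelled dose and time alone. All were made from total RNA of whole wild-type zebrafish that had stood in D-glucose from 6 h after fertilisation. After 14 days the fin was cut off beyond the end of the spinal cord under tricaine anaesthesia, and the larvae went back to their own medium. The 3 libraries of larvae in regular medium at the same time serve as a reference, and the remaining libraries hold uncut larvae and larvae at 3 h and 24 h in the same 3 media. No group kept in another sugar or osmolyte is named in the labels, so glucose and the strength of the medium cannot be told apart. The labels do not say how many larvae entered a library or whether replicates are separate clutches. The p-values therefore speak of differences between the libraries compared, set against a spread estimated from all 36 libraries. That spread may be technical. The design text gives the unit of the higher dose once as nM, while the sample labels give mM, which is used here.

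A cut zebrafish fin is first closed by a wound epidermis, a sheet of keratinocytes that migrate over the stump. A blastema of dividing cells then forms beneath it and rebuilds the ray bones, their collagen fibres (actinotrichia) and their joints, with Wnt, Fgf and retinoic acid signals among those that drive growth. Neutrophils and then macrophages enter the wound in between. Raised glucose in fish, as in mammals, engages insulin from the islets and glucose-handling enzymes of the liver, and long exposure is used as a model of diabetes. The RNA here comes from the whole animal, of which the fin is a small share, so most transcripts come from skin, muscle, gut, liver, pancreas, eye and brain.

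The 9 libraries at 48 h held 59331303 to 67514889 counts each, against 47904694 to 67514889 over the series, so depth differed little. The deposited FPKM (reads scaled for transcript length and library size) of muscle acta1b, liver fabp10a, pancreatic prss1, skin krt4, neuronal elavl3, lens cryaa, macrophage mpeg1 (2 of its 3 annotated copies) and neutrophil mpx were above 0 in all 9, whereas the globin hbaa1 was listed at 0 in each. Correlations of log2 CPM (a gene's counts relative to the library total, after trimmed-mean scaling) were 0.9856 to 0.9869 within 222 mM, 0.9859 to 0.9863 within 130 mM and 0.9613 to 0.967 between the 2 doses. The counts of replicate libraries differed by more than sampling noise, with a chi-square per degree of freedom of 11.15 to 23.1. A total of 18112 to 18295 genes reached 1 FPKM in 222 mM, 17499 to 17650 in 130 mM and 18328 to 18440 in regular medium. Genes of the mitochondrial genome took 3.51% to 3.78% of the counts in 222 mM, 4.04% to 4.33% in 130 mM and 3.44% to 3.45% in regular medium. No library at 48 h stood apart. The 4 that did, by their correlation with their own group, were uncut replicate 3 in regular medium, uncut replicate 3 in 222 mM, 130 mM replicate 1 at 24 h and, in regular medium at 3 h, replicate 1. They enter the shared estimate of the spread and the comparisons across time.

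Compared with 130 mM, the larger dose went with lower transcripts of skin keratins, cartilage and fin matrix, dividing cells, digestive enzymes and mitochondrial respiration. Some genes of liver detoxification were lower too. Lower here means below 130 mM and not below regular medium. Of 33 digestive enzymes, 20 were higher and none lower in 222 mM than in regular medium, and 29 were higher and 1 lower in 130 mM. Some chaperone, muscle stress, pigment epithelium and neuronal genes were higher, while other genes of the eye and nervous system were lower. edgeR's quasi-likelihood test on the deposited counts, fitted to all 36 libraries over 20120 genes, called 3170 genes at a Benjamini-Hochberg adjusted p under 0.05, which is 15.8% of those tested. Of these, 1636 (8.13%) were higher and 1534 (7.62%) lower in 222 mM. The percentages of list members given below are to be read against these shares. The change exceeded 2-fold for 430 of the higher and 282 of the lower genes, and the median log2 fold change was 0.75 among the higher and -0.63 among the lower. The higher genes were less abundant, with a median of 4.97 FPKM in 222 mM against 10.5 FPKM in 130 mM for the lower genes. Of the genes tested, 10541 (52.4%) had no overlap between the 3 libraries of 222 mM and the 3 of 130 mM, and so did 3163 of the genes called.

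The balance of the directions rested on the scale. With limma on the deposited FPKM, log2(FPKM + 0.1), the median of all genes was 0.12 higher in 222 mM and 72.8% of the calls were higher (74.2% with a pseudocount of 1), against a median of 0.00 and 51.6% with the trimmed mean of M-values (TMM) scaling used here. Summed FPKM were 382800 to 390500 in 222 mM and 406800 to 414500 in 130 mM. Gene length moved with the direction too. With the genes ranked by transcript length in 5 equal parts, 487 were higher and 220 lower in the longest. In the shortest, 172 were higher and 280 lower. The part of length in the calls was not tested. The count was 1729 without replicate 1 of 222 mM, 1929 without replicate 2 and 2221 without replicate 3, and 2143, 1767 and 1982 without replicates 1, 2 and 3 of 130 mM. A total of 1288 genes (679 higher, 609 lower) passed in all 6 of these fits. Without the 4 libraries that stood apart the count was 5911, and with the spread taken from the 6 compared libraries alone it was 8673. Failing to pass is thus judged against the shared spread and does not show equal levels. Some genes below that did not pass, per1b and cyp1a among them, had no overlap between the doses. Genes named below as changed between the doses at 48 h passed without each of the 6 libraries and under at least 8 of 10 other settings unless a sentence says otherwise, a preference set after their values were seen.

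Both doses were also set against regular medium. The 2 contrasts share the 3 regular libraries, so their values are given side by side only. Over all genes tested, 222 mM differed from regular medium upward in 7.05% and downward in 9.48%, and 130 mM in 8.98% and 10.9%. Of the 1636 genes higher in 222 than in 130 mM, 362 differed from regular medium in 222 mM and 818 in 130 mM. Their median log2 differences from regular medium were 0.21 and -0.53. For the 1534 lower genes the counts were 595 and 513, and the medians -0.34 and 0.30. These genes were picked by the difference between the doses.

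**Figure D1:**
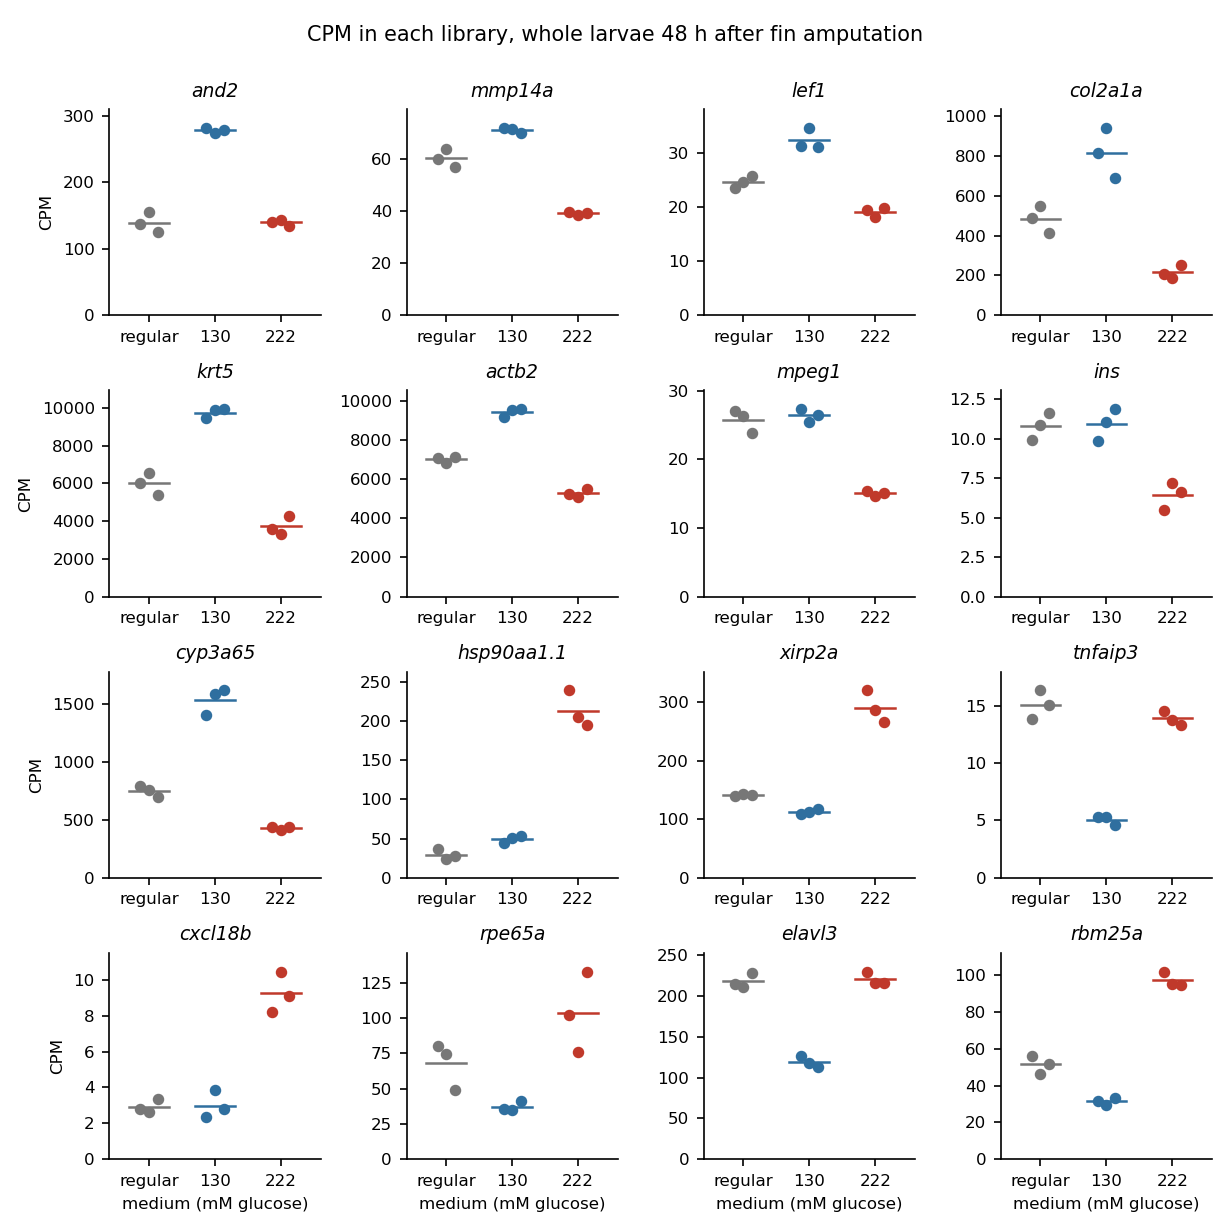
TMM-scaled CPM of 16 genes in each library at 48 h, with 1 panel a gene, the 3 media on the x axis, points for libraries and a line for the mean of each group. The points of and2, krt5 and cyp3a65 in 222 mM lie below all those in 130 mM, and those of xirp2a, elavl3 and rbm25a lie above them.

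Among genes of fin regrowth, those that passed were lower at the larger dose. Of 54 tested genes written down as markers of blastema and wound epidermis, 12 (22.2%, against 7.62% of all genes tested) fell and none rose, with a median log2 fold change of -0.33 against 0.00 over all genes (10 to 12 with single libraries left out, and 23 without the 4 libraries apart). In RNA of whole larvae, fewer cells of a type and less RNA per cell cannot be told apart. The actinodins, structural proteins of the actinotrichia that support the fin fold, fell together. and2 (chromosome 2, 31762852 to 31767827, GRCz11) measured 140, 143 and 134 CPM in the 3 libraries of 222 mM, 282, 274 and 278 in 130 mM, and 137, 156 and 125 in regular medium. Its 130 mM libraries stood above the other 6, and its log2 fold change of 222 over 130 mM was -0.99 ± 0.23 (SE, edgeR adjusted p = 0.0047). For and1 the values were 168, 155 and 171 CPM against 338, 316 and 328, and and3 changed by -1.003 ± 0.25 on the log2 scale (edgeR adjusted p = 0.00789).

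mmp14a, a membrane-bound matrix protease, had one of the steadiest differences in the list. It was at 39.7, 38.5 and 39.3 CPM in 222 mM and at 71.8, 71.4 and 69.9 CPM in 130 mM (log2 fold change -0.86 ± 0.11, edgeR adjusted p = 1.64e-05), with 60.0, 63.7 and 56.9 CPM in regular medium, and it lies on chromosome 7, 24124289 to 24149670. lef1, a transcription factor of the Wnt pathway expressed in the basal wound epidermis, fell by 0.75 ± 0.14 on the log2 scale (edgeR adjusted p = 0.000701), from 31.1 to 34.7 CPM down to 18.2 to 19.9 CPM. axin2, a Wnt target and inhibitor, fell by 0.35 ± 0.09, and rarga, a retinoic acid receptor, fell by 0.41 ± 0.11 (edgeR adjusted p = 0.00725 and 0.0087). lamb4, a laminin chain of the basement membrane, fell by 1.08 ± 0.22 (edgeR adjusted p = 0.0014). Other genes used as readouts of regrowth did not pass: the blastema factor msx1b was at 5.59 to 5.79 CPM in 222 mM and 5.10 to 5.90 in 130 mM (edgeR adjusted p = 0.897), and the early signal fgf20a at 2.92 to 3.60 and 2.18 to 3.48 CPM (edgeR adjusted p = 0.479). Against regular medium, 15 members were higher in 130 mM and none lower, while 3 were higher and 3 lower in 222 mM.

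Cartilage and other collagenous matrix held several of the largest falls. Of 65 tested collagens and matrix genes, 31 (47.7%) fell and 1 rose. The list median was -0.59 (19 called without replicate 2 of 222 mM, 27 without replicate 3 of 130 mM, and 47 without the 4 libraries apart). Their summed level was 5061 to 5650 CPM in 222 mM, 9863 to 10880 in 130 mM and 5828 to 7272 in regular medium, so the summed levels of the 2 doses did not overlap. col2a1a, the main collagen of cartilage and notochord sheath (chromosome 8, 21195420 to 21219473), was at 207, 187 and 251 CPM in 222 mM and 816, 941 and 689 in 130 mM. The 3 regular libraries, at 486, 551 and 412 CPM, fell between the doses, and the fold change of 222 over 130 mM was -1.92 ± 0.40 on the log2 scale (edgeR adjusted p = 0.00184). matn1, a cartilage matrix linker, fell by 2.31 ± 0.43 (edgeR adjusted p = 0.000783), from 113 to 161 CPM down to 25.9 to 29.9 CPM. The collagen IX chains, which coat the collagen II fibril, were also lower, col9a1a at 32.7 to 44.8 against 109 to 148 CPM and col9a2 at 52.5 to 70.9 against 149 to 187 CPM. The fibril-binding proteoglycans epyc, fmoda and ogna fell by 1.62 ± 0.33, 0.89 ± 0.16 and 0.75 ± 0.16 on the log2 scale (edgeR adjusted p = 0.00143, 0.000513 and 0.00161).

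Bone genes that passed were mostly lower. Of 24 tested genes of osteoblasts, osteoclasts and mineral handling, 7 (29.2%) fell and 2 (8.33%, near the 8.13% of all genes) rose. Their median was -0.36 (5 called without replicate 2 of 130 mM, 15 without the 4 libraries apart). sparc, a bone matrix glycoprotein, was at 146, 146 and 156 CPM in 222 mM and 303, 323 and 302 CPM in 130 mM (log2 fold change -1.05 ± 0.24, edgeR adjusted p = 0.00363). phex, a peptidase of phosphate and mineral control, fell by 0.81 ± 0.13, and acp5b, a tartrate-resistant acid phosphatase of osteoclasts, by 1.17 ± 0.23 (edgeR adjusted p = 0.00016 and 0.000796). col10a1a, a collagen of mineralising tissue, was at 18.6, 19.3 and 30.1 against 93.1, 101 and 84.0 CPM. Its edgeR adjusted p was 0.0178 and rose to 0.0804 without replicate 1 of 222 mM, 0.0727 without replicate 2 of 222 mM and 0.051 without replicate 2 of 130 mM.

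Skin held some of the most abundant transcripts that fell. Of 58 tested keratin and desmosome genes, 24 (41.4%) fell and 1 rose. The members' median was -0.40 (17 called without replicate 1 of 222 mM, 22 without replicate 1 of 130 mM, and 33 without the 4 libraries apart). Summed, the list stood at 17620 to 19770 CPM in 222 mM, 33410 to 35770 CPM in 130 mM and 19330 to 22300 CPM in regular medium. krt5, a basal epidermal keratin (chromosome 23, 10173196 to 10177458), was at 3558, 3340 and 4244 CPM in 222 mM, 9441, 9860 and 9932 in 130 mM and 6037, 6563 and 5392 in regular medium. The 3 groups did not overlap, with 222 mM lowest and 130 mM highest, and the log2 fold change of 222 over 130 mM was -1.39 ± 0.23 (edgeR adjusted p = 0.000154). A different arrangement was seen for krt91 and cyt1, in which 222 mM lay near regular medium: krt91 was at 3284, 3296 and 3801 CPM in 222 mM, 6352, 6394 and 6705 in 130 mM and 3023 to 3576 in regular medium. The type I keratin krtt1c19e, a basal cell marker that is not on the list, had the largest fall of all genes that qualified by symbol and level, from 1178, 1240 and 1163 CPM to 214, 193 and 294 CPM. The log2 fold change of 222 over 130 mM was -2.35 ± 0.52 (edgeR adjusted p = 0.00345). Keratins form a family of similar genes, and how shared reads were divided is not given in the sources used here, so single keratins are less certain than their sum.

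Genes of epithelial contacts were also among those that fell. cldn1, a tight junction protein, was at 32.5, 34.4 and 30.8 CPM against 70.6, 69.9 and 71.5 CPM (log2 fold change -1.12 ± 0.14, edgeR adjusted p = 8.63e-06), and epcam, an epithelial adhesion molecule, fell by 0.95 ± 0.20 (edgeR adjusted p = 0.00154). The cytoskeletal actin actb2 (chromosome 3, 40526107 to 40529804), often used as a reference gene, was at 5227, 5103 and 5510 CPM in 222 mM, 9165, 9550 and 9587 in 130 mM and 7064, 6844 and 7123 in regular medium. Its 3 media did not overlap, and the fold change was -0.84 ± 0.11 on the log2 scale (edgeR adjusted p = 1.18e-05).

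Ionocytes are the skin and gill cells that exchange ions with the water. Of 35 tested genes of ion transport, 9 (25.7%) fell and 2 (5.71%) rose. The median stood at -0.35 (9 or 10 called with single libraries left out, 17 without the 4 libraries apart). trpv6, the calcium uptake channel (chromosome 16, 12294284 to 12319822), was at 21.2, 19.7 and 19.6 CPM in 222 mM and 45.0, 43.5 and 45.5 in 130 mM, with 11.2 to 15.5 in regular medium (log2 fold change of 222 over 130 mM -1.15 ± 0.21, edgeR adjusted p = 0.000491). The sodium pump subunit atp1a1a.5 fell by 1.46 ± 0.25, the ionocyte transcription factors foxi3a and gcm2 by 1.18 ± 0.23 and 0.81 ± 0.16, and the ammonia channel rhcgb by 0.65 ± 0.11 (edgeR adjusted p = 0.000213, 0.00074, 0.00114 and 0.000234). ca2, a carbonic anhydrase, moved the other way, from 23.9 to 24.5 CPM up to 37.0 to 38.4 CPM.

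Of 81 tested cell cycle genes, 23 (28.4%) fell and none rose. Over its members the median was -0.70. The count was 8 without replicate 1 of 222 mM, 18 without replicate 3 of 222 mM and 56 without the 4 libraries apart, so its size rested on the libraries used. kif11, a spindle motor, was at 4.98, 3.46 and 3.47 CPM against 8.64, 10.5 and 9.04 CPM. The log2 fold change of 222 over 130 mM was -1.24 ± 0.25 (edgeR adjusted p = 0.00106). The mitotic kinase plk1 fell by 1.02 ± 0.21, the spindle protein nusap1 by 1.47 ± 0.30 and the replication helicase subunit mcm7 by 0.76 ± 0.15 (edgeR adjusted p = 0.00166, 0.00132 and 0.00101). mki67, the common proliferation marker, was at 17.6, 23.0 and 23.1 against 33.1, 30.3 and 33.5 CPM and did not pass (edgeR adjusted p = 0.0903). The regular libraries of kif11, at 8.21 to 10.17 CPM, lay with those of 130 mM, but those of the list as a whole did not. The list summed to 871.2 to 989.3 CPM in 222 mM, 1317 to 1398 in 130 mM and 938.7 to 1120 in regular medium, which overlapped with 222 mM.

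Immune cell markers that passed were lower in 222 mM. Of 32 tested macrophage and antigen presentation markers, 7 (21.9%, against 7.62% of all genes tested) fell and none rose. Their summed level was 1309 to 1384 CPM in 222 mM, 1714 to 1740 in 130 mM and 1683 to 1735 in regular medium. The median change was -0.32 (3 called without replicate 1 of 222 mM, 6 without replicate 3 of 222 mM, 12 without the 4 libraries apart). The annotation has more than 1 gene named mpeg1, a pore protein of macrophages, and they differed. The copy with identifier ENSDARG00000055290 fell by 0.81 ± 0.19 on the log2 scale, from 25.4 to 27.3 CPM down to 14.7 to 15.4 CPM (edgeR adjusted p = 0.00476). The copy ENSDARG00000043093 was at 62.6, 75.6 and 78.8 CPM in 222 mM and 52.3, 48.9 and 49.3 in 130 mM and did not pass (edgeR adjusted p = 0.251). lgals3b, a galectin of macrophages, fell by 0.53 ± 0.12 and the granulin grn2 by 1.26 ± 0.23 (edgeR adjusted p = 0.00324 and 0.000542).

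Neutrophil genes were lower in sum than in 130 mM, with few passing singly. Their 23 tested members summed to 1608 to 1710 CPM in 222 mM, 2325 to 2400 in 130 mM and 1148 to 1437 in regular medium, yet 2 (8.7%, near the 7.62% of all genes) fell and none rose (0 or 1 with single libraries left out, 8 without the 4 apart). Abundant members weigh most in such a sum. The list median was -0.21, with 15 members lower and 8 higher whether or not they passed. The granule genes mpx and lyz did not pass, at 53.6 to 64.2 against 66.2 to 81.4 CPM and 22.1 to 24.4 against 27.5 to 37.5 CPM (edgeR adjusted p = 0.474 and 0.32). Of 12 tested lymphocyte and thymus genes 3 (25.0%) fell and none rose (1 or 2 with single libraries left out), among them tcf7, a T cell transcription factor, by 1.05 ± 0.23 (edgeR adjusted p = 0.00197).

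Cytokine and wound signals moved singly. Of 22 tested cytokines and chemokines 3 (13.6%) rose and 1 (4.55%) fell (2 or 3 called with single libraries left out). Of 38 genes of inflammatory signalling 2 (5.26%) rose and 1 (2.63%) fell, below the 8.13% and 7.62% of all genes tested. cxcl18b, a chemokine that draws neutrophils in zebrafish, was at 8.23, 10.5 and 9.12 CPM in 222 mM and 2.36, 3.85 and 2.77 in 130 mM (log2 fold change 1.63 ± 0.37, edgeR adjusted p = 0.00294), and cxcl19 fell by 0.96 ± 0.24 (edgeR adjusted p = 0.00654). tnfaip3, the A20 inhibitor of NF-kB signalling, was at 14.6, 13.8 and 13.3 CPM against 5.29, 5.31 and 4.57 CPM, and regular medium, at 13.9 to 16.4 CPM, lay with 222 mM (log2 fold change of 222 over 130 mM 1.46 ± 0.25, edgeR adjusted p = 0.000221). The inflammatory cytokine il1b, at 2.82 to 3.90 against 1.76 to 2.52 CPM, and the matrix protease mmp9, at 11.96 to 18 against 16.6 to 21.0 CPM, did not pass (edgeR adjusted p = 0.46 and 0.613). The acute signals socs3b, il11a and irf1b did not pass either (edgeR adjusted p = 0.416, 0.762 and 0.918). Of 39 interferon genes 1 (2.56%) rose (0 without replicates 1 or 2 of 130 mM or replicate 1 of 222 mM). Of 38 immediate early genes 2 (5.26%) rose (0 without replicate 2 of either dose, 10 higher and 2 lower without the 4 libraries apart). One of them was npas4a, which was at 32.9 to 42.8 against 8.91 to 10.6 CPM and lost its call without replicate 2 of 222 mM, replicate 2 of 130 mM or replicate 3 of 130 mM (edgeR adjusted p 0.0174 with all, 0.0508 to 0.0656 without these).

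Of 45 tested heat shock and chaperone genes 6 (13.3%, against 8.13% of all genes tested) rose and none fell. The list median was 0.67 (3 or 4 called with single libraries left out, and 21 without the 4 libraries apart, 20 of them higher). The summed level of the list was 13580 to 14000 CPM in 222 mM and 13570 to 14110 CPM in 130 mM, which overlapped, and 9537 to 10320 CPM in regular medium. With limma on FPKM 15 rose and none fell (14 with a pseudocount of 1). hsp90aa1.1, a cytosolic chaperone strongly expressed in stressed muscle (chromosome 20, 53982317 to 53996193), was at 239, 205 and 195 CPM in 222 mM, 44.1, 51.1 and 53.9 in 130 mM and 24.4 to 36.7 in regular medium. These groups did not overlap. Yet the log2 fold change of 2.101 ± 0.72 (edgeR adjusted p = 0.0482) lost its call without any 1 of the 6 libraries, with adjusted p from 0.0775 to 0.135. Firmer calls were the chaperones hsph1, at 6.60 to 6.87 against 1.81 to 3.33 CPM (log2 fold change 1.41 ± 0.33, edgeR adjusted p = 0.00466), dnajb1a, which rose by 1.16 ± 0.28 (edgeR adjusted p = 0.00471), and the mitochondrial hspa9, which rose by 0.55 ± 0.12 (edgeR adjusted p = 0.00324). The small heat shock gene hspb9, at 18.3, 11.11 and 9.18 against 6.41, 6.41 and 8.51 CPM, did not pass (edgeR adjusted p = 0.305).

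Genes that answer unfolded protein and amino acid shortage passed in both directions, more of them upward. Of 54 tested, 7 (13%, above the 8.13% of all genes tested) rose and 3 (5.56%, below the 7.62%) fell. Their median was 0.22 (4 called without replicate 2 of 130 mM or replicate 1 of 222 mM, 15 without the 4 libraries apart). Of these members 3 higher and none lower passed without each of the 6 libraries. With limma on FPKM, log2(FPKM + 0.1), 8 were higher and 1 lower. ddit3, the stress transcription factor also called CHOP, was at 67.5, 60.8 and 53.0 CPM against 26.2, 27.1 and 29.9 CPM, with 78.0 to 102 CPM in regular medium (log2 fold change of 222 over 130 mM 1.12 ± 0.22, edgeR adjusted p = 0.00111). dnajb9b, a co-chaperone of the endoplasmic reticulum, rose by 1.57 ± 0.36, and atf6, a sensor of that compartment, by 0.74 ± 0.14 (edgeR adjusted p = 0.00376 and 0.000508).

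Genes of muscle stress that passed were mostly higher. Of 44 tested genes of muscle stress and atrophy 7 (15.9%) rose and 2 (4.55%) fell, against 8.13% and 7.62% of all genes tested. The members' median was 0.15 (5 or 6 called with single libraries left out, 19 without the 4 libraries apart). xirp2a, an actin-binding protein of strained and growing fibres (chromosome 6, 10170241 to 10233650), was at 320, 286 and 266 CPM in 222 mM, 109, 112 and 118 in 130 mM and 139 to 144 in regular medium, so that 222 mM stood above both other media (log2 fold change over 130 mM 1.37 ± 0.28, edgeR adjusted p = 0.00187). Its relative xirp1 rose by 1.25 ± 0.24, and ankrd1b, a titin-associated stress protein, by 0.90 ± 0.22 (edgeR adjusted p = 0.00087 and 0.00641). The related ankrd1a, at 6.63 to 13.3 against 3.23 to 4.39 CPM, the titin cap tcap, at 25.3 to 33.6 against 9.43 to 13.9 CPM, and the atrophy ligase fbxo32, at 28.7 to 46.9 against 31.6 to 36.5 CPM, did not pass (edgeR adjusted p = 0.236, 0.0702 and 0.925). fbxo32 was at 164 to 194 CPM in regular medium.

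Of 81 tested sarcomere genes 9 rose and 14 fell, and with limma on FPKM the balance turned, to 15 higher and 10 lower (16 and 10 with a pseudocount of 1). The median stood at -0.19 (10 called without replicate 2 of 130 mM, 46 without the 4 libraries apart). Fast myosin heavy chains were among those that rose: myhz1.3 was at 7102, 6506 and 7296 CPM in 222 mM, 3288, 3973 and 3827 in 130 mM and 9827 to 11460 in regular medium (log2 fold change of 222 over 130 mM 0.91 ± 0.22, edgeR adjusted p = 0.00516). Thin filament and light chain genes fell, actc1b by 0.83 ± 0.18, the light chain mylz3 by 0.93 ± 0.18 and the calcium buffer pvalb4 by 1.16 ± 0.24 (edgeR adjusted p = 0.00265, 0.000724 and 0.00144). The fast myosins lie in a cluster of near-identical genes, so the split of reads between them is uncertain. The list summed to 105600 to 117200 CPM in 222 mM and 107100 to 114600 CPM in 130 mM, which overlapped.

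In the lists of hepatocyte markers and detoxifying genes, all that passed by edgeR with all libraries were lower. Of 44 tested hepatocyte markers 10 (22.7%) fell and none rose. Over its members the median was -0.38 (8 to 10 called with single libraries left out, 19 without the 4 apart). Of 53 cytochrome P450 and other detoxifying genes 9 (17.0%) fell and none rose. The median change was -0.17 (4 called without replicate 3 of 130 mM, 26 without the 4 apart, 5 of them higher and 21 lower). With limma on FPKM 4 of these detoxifying genes were higher and 6 lower. cyp3a65, a drug-metabolising P450 of the zebrafish liver and gut (chromosome 1, 59338175 to 59348118), was at 438, 412 and 439 CPM in 222 mM, 1403, 1588 and 1620 in 130 mM and 795, 758 and 695 in regular medium. The 3 media did not overlap, and the log2 fold change of 222 over 130 mM was -1.84 ± 0.20 (edgeR adjusted p = 7.45e-07). hgd, an enzyme of tyrosine breakdown, was at 130, 134 and 135 CPM against 262, 255 and 273 CPM and had the smallest adjusted p of the genes named (log2 fold change -0.98 ± 0.09, edgeR adjusted p = 1.81e-07). The dioxin-inducible cyp1a, at 168 to 189 against 329 to 367 CPM, and the liver fatty acid binder fabp10a, at 282 to 396 against 387 to 449 CPM, did not pass (edgeR adjusted p = 0.209 and 0.572).

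Of 27 tested apolipoprotein and lipoprotein genes 6 (22.2%) fell and none rose. Among those that fell, apoa1a and apoea also count as hepatocyte markers and apoa4b.2 as an enterocyte marker. The list median was -0.41 (5 called with any single library left out, 13 without the 4 apart). apoea, a carrier of lipid in blood, was at 49.2, 50.8 and 57.3 CPM in 222 mM and 177, 206 and 193 in 130 mM, and regular medium, at 158 to 224 CPM, lay with 130 mM (log2 fold change of 222 over 130 mM -1.87 ± 0.45, edgeR adjusted p = 0.00571). apoa1a, the main protein of high-density lipoprotein, fell by 1.45 ± 0.25 (edgeR adjusted p = 0.000316). Unlike apoea, the list as a sum was lower in regular medium than in 130 mM. It was 7437 to 8065 CPM in 222 mM, 9628 to 11300 in 130 mM and 6459 to 7703 in regular medium, which overlapped with 222 mM. In cholesterol synthesis 6 of 35 (17.1%) fell and 1 (2.86%) rose. Their median was -0.50 (3 called without replicate 3 of 130 mM or replicate 1 of 222 mM, 21 without the 4 apart). cyp51, a sterol demethylase, was at 30.1, 20.1 and 37.5 against 105, 107 and 117 CPM, and regular medium, at 13.4 to 23.9 CPM, overlapped with 222 mM. The log2 fold change of 222 over 130 mM was -1.91 ± 0.43 (edgeR adjusted p = 0.00395). The rate-limiting reductase hmgcra, at 68.9 to 81.3 against 131 to 139 CPM, did not pass (edgeR adjusted p = 0.0954).

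Gut and pancreas genes were lower in 222 mM as well, and their summed levels in 130 mM exceeded those in regular medium. The same held for the keratin and collagen lists above and for hepatocyte markers. Hepatocyte markers summed to 12800 to 14350 CPM in 222 mM, 18190 to 21120 in 130 mM and 12580 to 14120 in regular medium. Of 33 tested pancreatic digestive enzymes 13 (39.4%) fell and 1 rose. The members' median was -0.49 (7 called without replicate 3 of 222 mM, 12 without replicate 1 of 130 mM, 20 without the 4 apart). Their sum was 16900 to 18460 CPM in 222 mM, 25070 to 27340 in 130 mM and 8190 to 9919 in regular medium. cpa4, a carboxypeptidase, was at 147, 162 and 152 CPM in 222 mM, 346, 384 and 391 in 130 mM and 74.3, 68.6 and 89.4 in regular medium, and the media did not overlap (log2 fold change of 222 over 130 mM -1.28 ± 0.21, edgeR adjusted p = 0.00018). The elastase ela2 fell by 1.19 ± 0.22 and the bile salt lipase cel by 0.84 ± 0.18 (edgeR adjusted p = 0.000523 and 0.00172). The trypsin gene prss1 was at 2157 to 2395 against 3017 to 3449 CPM and passed with all libraries (edgeR adjusted p = 0.0219), but lost its call without replicate 1 or 3 of 222 mM or replicate 2 or 3 of 130 mM (0.0582 to 0.0842). Of 45 enterocyte markers 13 (28.9%) fell and 1 (2.22%) rose. The median stood at -0.41 (5 called without replicate 2 of 222 mM, 11 without replicate 1 of 130 mM, 23 without the 4 apart). fabp6, the ileal bile acid binder, fell by 1.503 ± 0.29 (edgeR adjusted p = 0.000979), and chia.3, a chitinase, rose by 0.96 ± 0.19 (edgeR adjusted p = 0.00112).

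Of 32 tested genes of glucose uptake, storage and gluconeogenesis 1 (3.12%) rose and 4 (12.5%) fell. Over its members the median was 0.04 (3 or 4 called with single libraries left out). gck, the liver glucokinase (chromosome 8, 40476811 to 40490593), was at 60.8, 73.8 and 77.3 CPM in 222 mM, 117, 119 and 124 in 130 mM and 0.542, 1.11 and 1.38 in regular medium. Both doses thus lay far above regular medium, while the log2 fold change of 222 over 130 mM was -0.77 ± 0.81 (edgeR adjusted p = 0.566). The gluconeogenic phosphatases fbp1a and fbp1b fell by 0.71 ± 0.13 and 0.76 ± 0.17, and ppargc1a, a coactivator of mitochondrial genes, rose by 0.62 ± 0.14 (edgeR adjusted p = 0.000607, 0.00283 and 0.00237). pck1, the gluconeogenic carboxykinase, was at 173, 209 and 140 against 281, 294 and 304 CPM and did not pass (edgeR adjusted p = 0.0723), nor did slc2a2, the liver and beta cell glucose transporter, at 55.9 to 62.9 against 56.3 to 66.6 CPM, or the glucose-sensitive txnipa, at 450 to 458 against 544 to 600 CPM (edgeR adjusted p = 0.818 and 0.231).

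Insulin was near the threshold. ins (chromosome 5, 37854685 to 37857696) was at 5.48, 7.18 and 6.64 CPM in 222 mM, 9.90, 11.09 and 11.9 in 130 mM and 9.95, 10.9 and 11.7 in regular medium. Its libraries of 222 mM lay below the other 6, and the log2 fold change of -0.77 ± 0.27 passed with all libraries (edgeR adjusted p = 0.0456), but without any 1 of the 6 the adjusted p was 0.0632 to 0.172. Of 17 tested islet genes 3 (17.6%) fell and none rose (1 with any single library left out), whereas with limma on FPKM 3 were higher and 1 lower. neurod1, a transcription factor of endocrine cells and neurons, was at 57.1, 55.0 and 55.4 against 117, 112 and 116 CPM, with 178 to 188 in regular medium (log2 fold change of 222 over 130 mM -1.04 ± 0.23, edgeR adjusted p = 0.00335).

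Of 87 tested genes of oxidative phosphorylation 25 (28.7%) fell and none rose. The median change was -0.34. The count was 6 without replicate 1 of 222 mM, 14 without replicate 1 of 130 mM and 45 without the 4 libraries apart. COX5B, a subunit of cytochrome oxidase, was at 114, 123 and 122 CPM against 182, 180 and 174 CPM (log2 fold change -0.58 ± 0.14, edgeR adjusted p = 0.00466). The list member ndufa4l fell by 0.69 ± 0.15 and the ATP synthase subunit atp5po by 0.59 ± 0.14 (edgeR adjusted p = 0.00241 and 0.00449). Against regular medium 37 members were higher in 130 mM and none lower, while in 222 mM 3 were higher and 2 lower. The share of counts from the mitochondrial genome, given above, was also lowest in regular medium and 222 mM, and its part in this result was not tested. In fatty acid oxidation 14 of 42 (33.3%) fell and 1 (2.38%) rose. The list median was -0.35 (4 called without replicate 1 of 222 mM, 25 without the 4 apart). The uncoupling protein ucp1 was at 501, 640 and 566 CPM in 222 mM, 1213, 1277 and 1363 in 130 mM and 2075 to 2187 in regular medium, each medium above the last without overlap (log2 fold change of 222 over 130 mM -1.17 ± 0.19, edgeR adjusted p = 0.000164). Of 36 genes of glycolysis and the pentose phosphate pathway 6 (16.7%) fell and none rose. Their median was -0.16 (2 called without replicate 2 of 130 mM or replicates 1 or 2 of 222 mM, 15 without the 4 apart).

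Of 53 tested genes of oxidative stress and glutathione 17 (32.1%) fell and 1 rose. The members' median was -0.35 (9 called without replicate 1 of 222 mM, 33 without the 4 apart). Catalase, cat, was at 65.3, 66.8 and 63.7 CPM against 121, 125 and 121 CPM (log2 fold change -0.91 ± 0.18, edgeR adjusted p = 0.00106), the peroxiredoxin prdx2 fell by 0.87 ± 0.17 and the glutathione transferase mgst3b by 0.95 ± 0.15 (edgeR adjusted p = 0.000777 and 9.29e-05). txnrd2, the mitochondrial thioredoxin reductase, rose by 1.12 ± 0.22 (edgeR adjusted p = 0.000811). Of 35 genes of hypoxia and iron 7 (20%) fell and 3 (8.57%) rose. The median stood at -0.16. The ferritin chain fth1a was at 596, 596 and 602 CPM in 222 mM, 980, 1012 and 986 in 130 mM and 634 to 641 in regular medium (log2 fold change of 222 over 130 mM -0.73 ± 0.11, edgeR adjusted p = 9.24e-05), and egln3, an oxygen sensor, fell by 1.22 ± 0.28 (edgeR adjusted p = 0.00384). Of 24 erythroid genes 8 (33.3%) fell and 1 (4.17%) rose. Over its members the median was -0.16 (5 called without replicate 1 of 222 mM). alas2, which starts haem synthesis in red cells, fell by 1.25 ± 0.26, while fech, which ends it, rose by 1.29 ± 0.20 (edgeR adjusted p = 0.00155 and 0.000102).

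In the eye and nervous system members went both ways. Of 66 tested genes of opsins and phototransduction 8 (12.1%) rose and 9 (13.6%) fell. The median change was 0.01 (12 called without replicate 2 of either dose, 29 without the 4 apart). With limma on FPKM 11 were higher and 5 lower, and without the 4 apart 15 and 14. Genes of the pigment epithelium, which regenerates the visual chromophore, were among those that rose. rpe65a, its isomerase (chromosome 2, 1428696 to 1443692), was at 102, 76.2 and 133 CPM in 222 mM, 35.5, 34.5 and 41.4 in 130 mM and 48.7 to 80.1 in regular medium (log2 fold change of 222 over 130 mM 1.48 ± 0.36, edgeR adjusted p = 0.00648). The retinaldehyde binder rlbp1b and the retinol dehydrogenase rdh5 rose by 1.45 ± 0.25 and 1.65 ± 0.31 (edgeR adjusted p = 0.000269 and 0.000616). The libraries of 222 mM were uneven in these genes, replicate 3 being highest in all 3 of them and replicate 2 lowest. The green cone opsin opn1mw1 fell by 1.29 ± 0.24, from 147 to 159 CPM down to 58.2 to 68.3 CPM (edgeR adjusted p = 0.000652). Of 42 lens crystallin genes 2 (4.76%, below the 8.13% of all genes tested) rose and none fell. The list median was 0.59 (0 or 1 called with single libraries left out), and the sum of the list was 6422 to 7342 CPM in 222 mM and 4107 to 5366 in 130 mM.

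Of 61 tested genes of synapse and neuron 11 (18%) rose and 7 (11.5%) fell. Their median was 0.19 (9 called without replicate 1 of 222 mM, 31 without the 4 apart). elavl3, an RNA-binding protein of neurons (chromosome 3, 46800190 to 46818001), was at 230, 217 and 216 CPM in 222 mM, 126, 118 and 113 in 130 mM and 211 to 228 in regular medium, so that 130 mM lay below the other media (log2 fold change of 222 over 130 mM 0.89 ± 0.17, edgeR adjusted p = 0.00074). The postsynaptic scaffold dlg4a and the synaptic regulator cplx2 rose by 1.21 ± 0.21 and 0.75 ± 0.15 (edgeR adjusted p = 0.00022 and 0.00126). The glial filament gene gfap went the other way, at 108, 113 and 106 against 231, 248 and 215 CPM. The log2 fold change of 222 over 130 mM was -1.09 ± 0.18 (edgeR adjusted p = 0.00022).

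Clock and growth genes made up the rest of the named lists. Of 45 genes of glucocorticoid response and clock 6 (13.3%) rose and 4 (8.89%) fell. The members' median was 0.22 (4 called without replicate 1 of 130 mM or replicate 2 of 222 mM, 21 without the 4 apart). The clock output factor tefa was at 362, 358 and 358 against 211, 212 and 224 CPM (log2 fold change 0.74 ± 0.19, edgeR adjusted p = 0.00848), and the core clock activator arntl1a fell by 1.25 ± 0.19, from 22.3 to 26.3 CPM down to 9.07 to 12.2 CPM (edgeR adjusted p = 7.81e-05). per1b, a clock repressor, was at 194 to 198 against 122 to 132 CPM and did not pass (edgeR adjusted p = 0.533). The labels give no hour of day for the collections. Of 82 ribosome and ribosome biogenesis genes 6 rose and 6 fell (7.32% each, near the 8.13% and 7.62% of all genes). Their median was 0.04 (6 called without replicate 1 of 222 mM, 28 without the 4 apart, 20 of them higher and 8 lower). With limma on FPKM 14 were higher and 2 lower (15 and 2 with a pseudocount of 1). The list summed to 49770 to 53680 CPM in 222 mM and 57110 to 60150 CPM in 130 mM. The factors of ribosome assembly mrto4 and nop2 rose by 0.99 ± 0.19 and 0.76 ± 0.18 (edgeR adjusted p = 0.000779 and 0.00475). No member of the insulin-like growth factor axis passed out of 21 tested by edgeR (3 without the 4 apart), igfbp1a being at 69.2 to 91.4 against 55.8 to 79.7 CPM (edgeR adjusted p = 0.62). Of 25 genes of osmolytes and the osmotic response 5 rose and 5 fell (20% each). The median stood at 0.00 (4 called without replicate 2 of 130 mM, 8 without replicate 3 of 222 mM). Of these members 1 higher and 2 lower passed without each of the 6 libraries. With limma on FPKM 5 were higher and 2 lower.

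**Figure D2:**
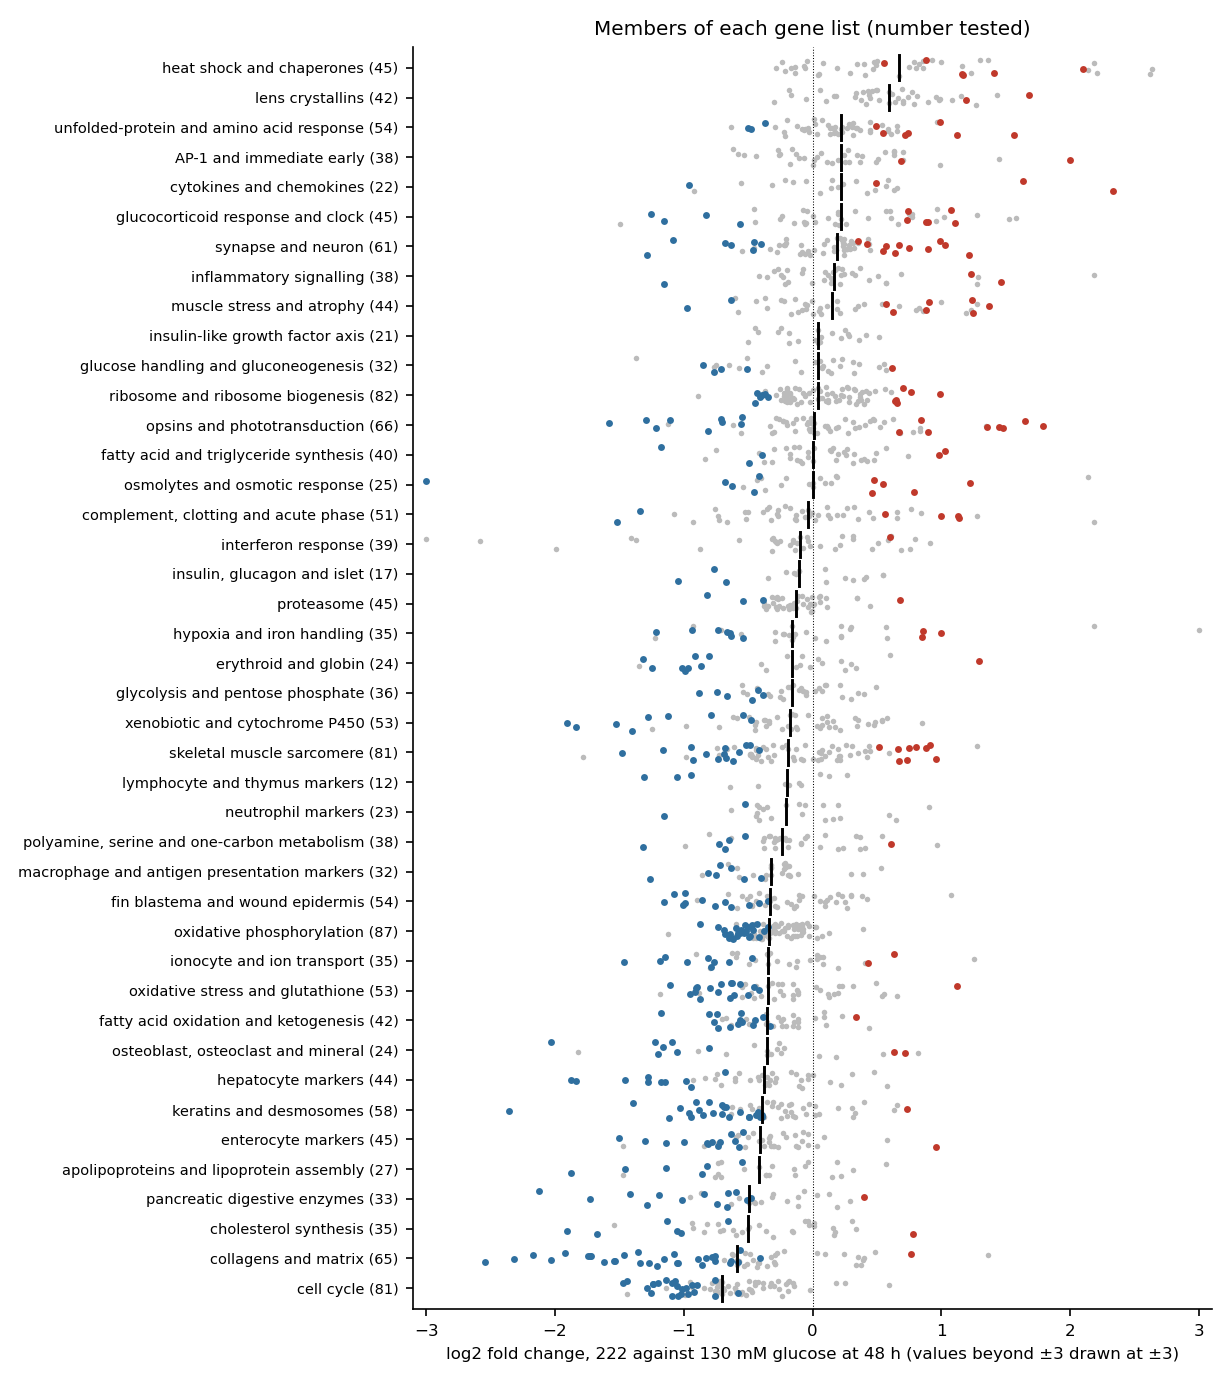
Log2 fold change of 222 over 130 mM at 48 h for each tested member of 42 gene lists, clipped at 3 in either direction, with members that passed in red (higher) or blue (lower), others in grey, and a black line at the list's median. The medians of collagens and matrix (-0.59) and cell cycle (-0.70) lie left of 0, and that of heat shock and chaperones (0.67) lies right of it.

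Several further strong changes were seen in single genes. arhgap18, a GTPase-activating protein (chromosome 20, 2064400 to 2090789), was at 13.6, 12.8 and 14.2 CPM in 222 mM, 4.11, 2.59 and 3.59 in 130 mM and 14.8 to 17.1 in regular medium (log2 fold change of 222 over 130 mM 1.98 ± 0.20, edgeR adjusted p = 2.24e-07). The 130 mM libraries stood below the other 6. RAP1GDS1, an exchange factor for small GTPases, had the same arrangement, at 10.9 to 14.6, 2.70 to 4.70 and 11.4 to 12.5 CPM in 222 mM, 130 mM and regular medium (log2 fold change 1.73 ± 0.29, edgeR adjusted p = 0.000177). rbm25a, a splicing factor (chromosome 13, 32997020 to 33022372), was at 102, 95.1 and 94.8 CPM in 222 mM, 31.8, 29.5 and 33.4 in 130 mM and 46.5 to 56.1 in regular medium (log2 fold change of 222 over 130 mM 1.62 ± 0.18, edgeR adjusted p = 1.36e-06). lratb.2, a relative of the retinol acyltransferase, had the largest rise among genes that qualified by symbol and level, at 10.03, 4.33 and 12.5 against 1.33, 1.08 and 2.26 CPM (log2 fold change 2.52 ± 0.45, edgeR adjusted p = 0.000421). As in the pigment epithelium genes above, replicate 3 of 222 mM was highest for lratb.2 and replicate 2 lowest. impg2b, of the matrix around photoreceptors, rose by 1.81 ± 0.30 (edgeR adjusted p = 0.000193).

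The same 2 doses were also compared in uncut larvae and at 3 h and 24 h, in libraries that share none with 48 h. The dose difference at 48 h differed from that in uncut larvae for 1609 genes (8.0% of those tested, 3.79% more positive and 4.21% more negative at 48 h), from that at 3 h for 1847 (9.18%, 4.94% and 4.24%) and from that at 24 h for 2097 (10.4%, 5.94% and 4.48%), by edgeR's test of the interaction at an adjusted p under 0.05. With limma on FPKM, log2(FPKM + 0.1), the balance turned in the comparison with uncut larvae and shifted towards more positive in those with 3 h and 24 h. By that test 2055 genes were more positive and 322 more negative against uncut larvae, 2651 and 368 against 3 h and 1543 and 422 against 24 h. Among the 3170 genes called at 48 h the edgeR tests of the interaction passed for 984, 1030 and 837. These are 31.04%, 32.49% and 26.4%, against 8.0%, 9.18% and 10.4% of all genes tested. The 3170 were picked by the 48 h difference, which is a term of each of these tests, so larger shares were built in. The doses differed in 1535 genes in uncut larvae (4.65% of those tested higher and 2.98% lower in 222 mM), in 2581 at 3 h (5.75% and 7.08%) and in 4898 at 24 h (10.9% and 13.5%). Genes called at 48 h and in uncut larvae numbered 320, which is 10.09% of the first list and 20.85% of the second, and 79 of them went in opposite directions. With 3 h the overlap was 505 (15.93% and 19.57%, 142 opposite), and with 24 h it was 1104 (34.83% and 22.54%, 156 opposite). Over all genes tested 15.8% were called at 48 h. That share is to be set beside the 20.85%, 19.57% and 22.54% of genes called in uncut larvae, at 3 h and at 24 h.

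For cell cycle genes 76 of 81 were lower in 222 mM at 3 h and 58 at 24 h against 23 at 48 h, and the difference at 48 h was less negative than at 3 h for 17 of them, with list medians of -0.45, -1.79, -1.33 and -0.70 at uncut, 3 h, 24 h and 48 h. For collagens and matrix 17 of 65 were lower at 3 h and 44 at 24 h, with medians of -0.14, -0.46, -1.07 and -0.59 in the same order. Keratins had medians of 0.00, 0.08, -0.51 and -0.40, and the difference at 48 h was more negative than in uncut larvae for 14 members and than at 3 h for 20. Pancreatic enzymes were more negative at 48 h than in uncut larvae for 12 of 33 and than at 3 h for 17, and hepatocyte markers for 16 and 12 of 44. Of 51 complement, clotting and acute phase genes 35 were higher in 222 mM in uncut larvae, with a median of 1.54. At 48 h 4 (7.84%) were higher and 2 (3.92%) lower (0 without replicate 1 or 2 of 222 mM, 7 higher and 9 lower without the 4 apart). The difference at 48 h was more negative than in uncut larvae for 26 of these genes. Of 82 ribosome genes 46 were higher at 24 h, and the 48 h difference was more negative than at 24 h for 24. Synapse genes and opsins were more positive at 48 h than in uncut larvae for 13 of 61 and 14 of 66 members.

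**Figure D3:**
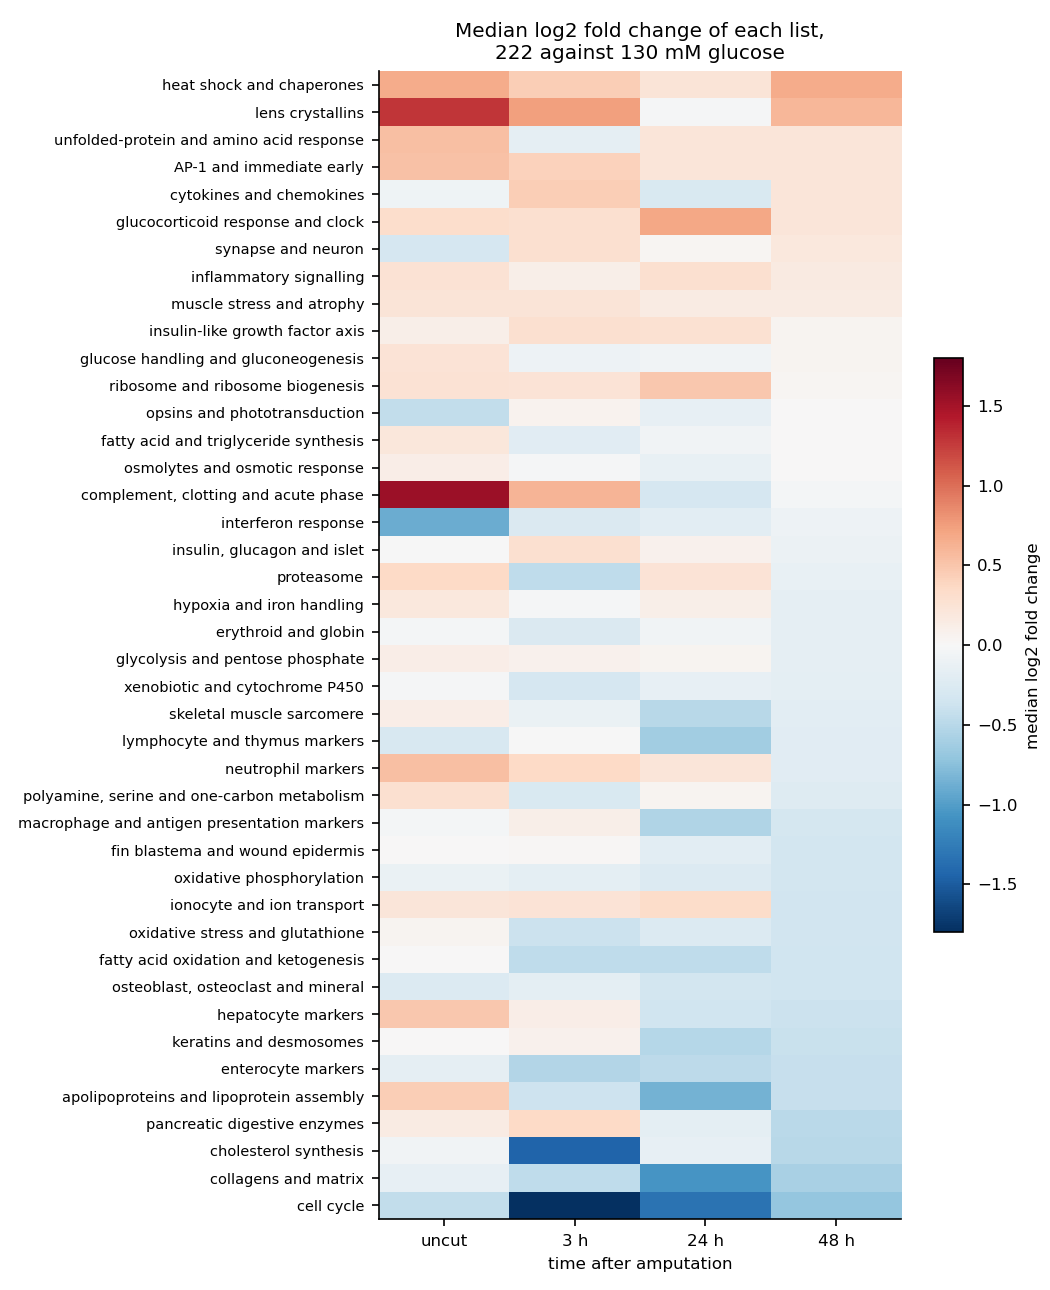
Median log2 fold change of 222 over 130 mM for each gene list (rows) in uncut larvae and at 3, 24 and 48 h (columns), as colour from blue (lower in 222 mM) to red (higher). Cell cycle is bluest at 3 h (-1.79), and complement, clotting and acute phase is red in uncut larvae (1.54) and near white at 48 h.

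Single genes followed several courses. cyp3a65 differed between the doses at 48 h, while its log2 differences in uncut larvae and at 3 h and 24 h, -0.02 ± 0.19, 0.37 ± 0.19 and -0.12 ± 0.19, did not pass (edgeR adjusted p = 0.972, 0.201 and 0.685), and the 48 h difference was more negative than each of them, by 1.82, 2.21 and 1.72. hgd went from 0.71 ± 0.09 at 3 h, where 222 mM was higher, to -0.98 ± 0.09 at 48 h. The actin gene actb2 went from 0.40 ± 0.11 at 3 h through -0.33 ± 0.11 at 24 h to -0.84 ± 0.11 at 48 h. The calcium channel trpv6 was higher in 222 mM at 24 h, by 1.88 ± 0.21 on the log2 scale, and lower by 1.15 ± 0.21 at 48 h. rbm25a was lower in 222 mM at 24 h, at -0.92 ± 0.18, and higher at 48 h, at 1.62 ± 0.18. The dose differences of 4 named wound and stress genes were smaller at 48 h than at 24 h. mmp9 was at 2.13 ± 0.43 at 24 h and -0.35 ± 0.42 at 48 h, socs3b at 1.37 ± 0.19 and 0.24 ± 0.19, il11a at 4.48 ± 0.89 and 0.42 ± 0.78, and hspb9 at 3.69 ± 0.59 and 0.86 ± 0.54, and for these 4 genes the test of the difference between the times passed (edgeR adjusted p = 0.00923, 0.00793, 0.0248 and 0.0205). One of the 24 h libraries of 130 mM is among the 4 that stood apart.

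**Figure D4:**
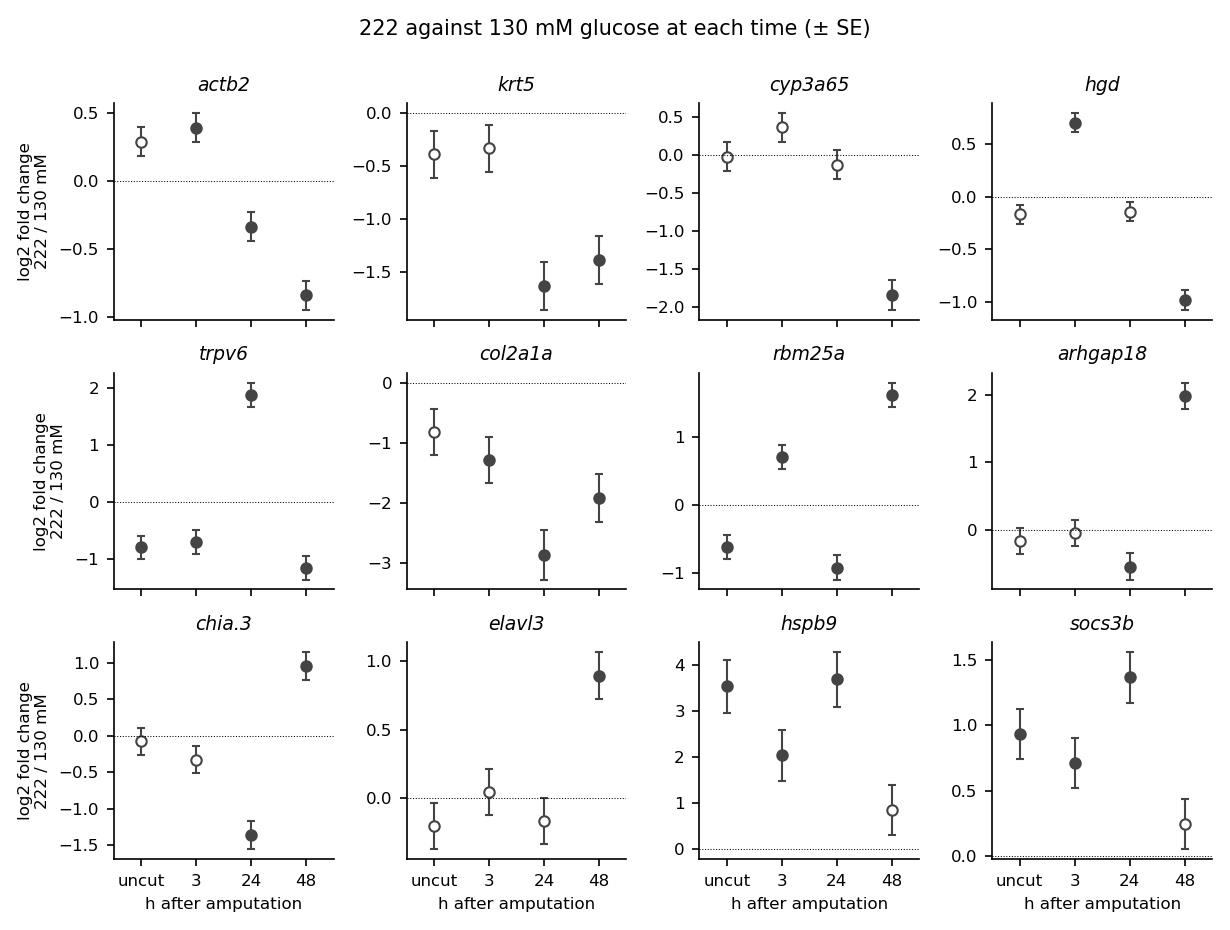
Log2 fold change of 222 over 130 mM with its SE for 12 genes in uncut larvae and at 3, 24 and 48 h, with filled points where the edgeR adjusted p was under 0.05. cyp3a65 lies away from 0 at 48 h, trpv6 changes side between 24 h and 48 h, and hspb9 and socs3b come back towards 0.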

How the data were processed

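RNA of whole larvae was sequenced in 36 libraries, 3 in each of 12 groups of medium and time. The deposited table holds counts per gene and FPKM, made by the authors on GRCz11 with HISAT, StringTie and edgeR, per the submitters' processing notes. The strand setting of the counting is not given in the sources used here, so overlapping and antisense genes cannot be told apart. Per the file headers, each count and FPKM column names 1 library, and all were mapped to samples. Counts were tested with edgeR 4.0.16 in R 4.3.3 (TMM scaling, robust quasi-likelihood fit, 1 mean per group over all libraries), keeping 20120 of 30221 genes at 1 FPKM or more in at least 3 libraries, with Benjamini-Hochberg adjustment at 0.05. The common biological coefficient of variation was 0.203. SE is the absolute log2 fold change over the root of F. Only the main edgeR comparison was tried on simulated counts. These gave every gene the same spread between libraries, so the trial does not speak for the real spread. CPM are edgeR's after TMM. FPKM, which the authors deposited, were used for the filter and with limma 3.58.1. DESeq2 1.42.0, other scalings and filters, fits without single libraries and with a replicate block were alternatives. Figures used matplotlib 3.10.9.

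The groups compared, the 42 gene lists and 33 single readouts were chosen with earlier results of these data known. Genes named were the 12 largest rises and falls that passed without overlap at 5 FPKM or more, up to 8 passing members of a list by adjusted p, the 8 smallest adjusted p of each test against another time, and the readouts; a few genes are not reported here. Of 1871 distinct list symbols, 78 matched no gene. Same-numbered replicates did not deviate together (correlations 0.0289, 0.0158 and -0.0148), so no block entered the main test. Depth was 47904694 to 67514889 counts per library, and precision at these counts is set by the spread between libraries.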

Additional observations from a re-analysis of the deposited data

Results flagged for a closer look

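The dose difference at 48 h differed, by edgeR's test of the difference between times, from that in uncut larvae for 1609 genes, from that at 3 h for 1847 and from that at 24 h for 2097. With limma on FPKM, log2(FPKM + 0.1), 2055 genes were more positive and 322 more negative against uncut larvae, where edgeR gave 762 and 847. Values below are the log2 dose difference at 48 h minus that at the other time, for genes among the 8 with the smallest adjusted p in each test.

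Against uncut larvae, the difference was more negative at 48 h for actb2 (-1.13), cyp3a65 (-1.82) and wasf2 (-0.968), an actin regulator. It was more positive for arhgap18 (2.15), gna14 (1.85), napgb (1.75), rbm25a (2.24) and soul5 (1.57).

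Against 3 h it was more negative for actb2 (-1.23), caprin1b (-1.41), cyp3a65 (-2.21), hgd (-1.69), slc27a2a (-2.12) and vim (-1.58), the last an intermediate filament of mesenchyme, and more positive for fam234a (1.64).

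Against 24 h it was more positive for adgrf8 (2.37), arhgap18 (2.53), arpin (1.96), chia.3 (2.32) and rbm25a (2.55), and more negative for pus7 (-1.35), rhcgb (-1.5) and trpv6 (-3.03). caprin1b and pus7 were not called between the doses at 48 h itself (edgeR adjusted p = 0.926 and 0.0901). The call at 48 h was lost for slc27a2a without replicates 1 or 2 of 222 mM or replicates 2 or 3 of 130 mM (edgeR adjusted p 0.0732 to 0.115). It was lost for gna14 without replicate 3 of 222 mM or replicate 2 of 130 mM (edgeR adjusted p = 0.0655 and 0.0776) and for vim without replicate 1 of 222 mM (edgeR adjusted p = 0.051).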

How the results depend on the processing

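The count of genes between the doses at 48 h (3170) stayed within 1.5 times with DESeq2 (3620), median-ratio scaling (3172), another expression filter (3090), no filter (2883), limma on FPKM (3335 and 3485) and a replicate block over all libraries (3132). It was 8673 with only the groups compared, 8576 with these and a replicate block, 5911 without the 4 libraries apart, 910 at an unadjusted p with a 2-fold change, and 1729 to 2221 without single replicates. The difference from uncut larvae (1609) was 2506 with limma at a pseudocount of 1, 3405 with only the groups compared, 3223 with these and the replicate block, 2886 without the libraries apart, and 686 to 2509 without single replicates. The difference from 3 h (1847) was 3019 and 3177 with limma, 3173 with only the groups compared, 2754 with these and the replicate block, 4705 without the libraries apart, and 1137 to 2251 without single replicates. The difference from 24 h (2097) was 3725 with only the groups compared, 3416 with these and the replicate block, 4456 without the libraries apart, and 1264 to 2138 without single replicates. Fits without a replicate use fewer samples, and those without the libraries apart estimate the spread from others. For the remaining changes the cause was not tested. No named gene that passed between the doses changed sign under the alternatives run. With limma on FPKM the split of calls shifted towards higher: with pseudocounts of 0.1 and 1, 2055 and 2180 genes were more positive and 322 and 326 more negative at 48 h than in uncut larvae. Sarcomere, islet, opsin and fatty acid synthesis lists had more calls lower than higher by edgeR and more higher than lower by limma on FPKM. Ribosome and osmolyte lists had as many calls higher as lower by edgeR and more higher than lower by limma on FPKM. The list medians of complement, islet and interferon genes at 48 h change sign with FPKM scaling, so no direction is given for these medians.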

Other observations

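Further lists were tested by edgeR at 48 h. Of 40 genes of fatty acid and triglyceride synthesis 2 (5.0%) rose and 3 (7.5%) fell, with a median log2 fold change of 0.01 (-0.0038 with median-ratio scaling). The count was 1 without replicate 2 of 130 mM or replicate 1 of 222 mM, and with limma on FPKM 5 were higher and 1 lower. Of 45 proteasome genes 1 (2.22%) rose and 3 (6.67%) fell (2 or 3 called with single libraries left out), with a median of -0.13. The subunit psma1 fell by 0.54 ± 0.13 (edgeR adjusted p = 0.00412). Of 38 genes of polyamine, serine and one-carbon metabolism 1 (2.63%) rose and 5 (13.2%) fell, with a median of -0.24. Among these, ahcy, which removes the by-product of methylation, was at 668, 667 and 736 CPM in 222 mM and 1030, 1102 and 1122 CPM in 130 mM (edgeR adjusted p = 0.000523).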
